A study of Mus musculus with 103 samples.

Results

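Cxcl12 and Cxcl14 encode secreted chemokines, and Cxcr4 and Ackr3 encode the seven-transmembrane receptors that bind CXCL12. These 4 genes, of 19938 measured with 1 gene symbol per probe set, were taken by the platform's gene symbol and described across a microarray atlas of the mouse embryonic face. Each gene was measured by 1 probe set, 10541075 for Cxcl12, 10409579 for Cxcl14, 10357472 for Cxcr4 and 10348451 for Ackr3. Embryos of the CD1 outbred strain were flash frozen at E8.5, E9.5 or E10.5, small regions were cut from cryosections by laser capture microdissection, and the amplified RNA of each sample was hybridised to 1 array. The series holds 103 such samples, called libraries here, and 102 of them fall into 22 groups of 4 to 7 libraries by region and stage.

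The groups ran as follows, with no treatment or engineered allele in any of them. At E8.5 there were 18 libraries in 4 groups: mesenchyme, floor plate neural epithelium, caudal neural epithelium and non-floor plate neural epithelium. At E9.5 there were 34 libraries in 6 groups: otic vesicle, epidermal ectoderm, mandibular arch, maxillary arch, neuroepithelium and cranial mesenchyme. At E10.5 there were 50 libraries in 12 groups: central neuroepithelium at the midline, neuroepithelium under the lateral and under the medial nasal prominence, control neuroepithelium away from the prominences, olfactory pit, Rathke's pouch, medial nasal prominence, lateral nasal eminence, maxillary and mandibular arch epidermal ectoderm, mandibular arch and maxillary arch. The labels do not say whether libraries of a group came from different embryos or litters, so p-values measure the spread between libraries, which may be technical in part.

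CXCL12 is a chemoattractant and survival signal that acts through the G protein-coupled receptor CXCR4. ACKR3 binds the same ligand, does not couple to G proteins in the usual way, recruits arrestin, and removes CXCL12 from the extracellular space. In vertebrate embryos this trio guides migrating cells, among them neural crest cells, neurons, vascular cells and the lateral line primordium of zebrafish. CXCL14 is a chemokine known for high expression in skin and other epithelia, and its receptor is less well settled.

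The promoters of the ligands are printed because the ligands had unlike patterns across the face. They cover the 250 bases before the first annotated start of each gene in RefSeq's GRCm38.p6 annotation, at chr6:117168285-117168534 on the plus strand for Cxcl12 and chr13:56296552-56296801 on the minus strand for Cxcl14, each written 5′ to 3′ on the gene's own strand. Capitals mark matches to TATAAA or GGGCGG on either strand.
Cxcl12: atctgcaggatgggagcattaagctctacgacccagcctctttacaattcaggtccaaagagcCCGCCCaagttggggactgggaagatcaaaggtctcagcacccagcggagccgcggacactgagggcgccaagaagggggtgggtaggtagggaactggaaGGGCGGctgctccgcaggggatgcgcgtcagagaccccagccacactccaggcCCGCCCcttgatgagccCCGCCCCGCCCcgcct
Cxcl14: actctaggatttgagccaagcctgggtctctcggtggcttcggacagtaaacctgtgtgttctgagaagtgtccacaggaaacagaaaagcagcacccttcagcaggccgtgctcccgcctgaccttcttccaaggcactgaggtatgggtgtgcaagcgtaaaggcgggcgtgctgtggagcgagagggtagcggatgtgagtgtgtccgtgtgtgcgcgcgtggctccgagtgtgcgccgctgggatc
The Cxcl12 promoter held 5 matches to GGGCGG, some of which overlap, and 0 to TATAAA. The Cxcl14 promoter held 0 of either. In the same window Cxcr4 had 3 matches to GGGCGG and 2 to TATAAA, where 1 place matches on both strands, and Ackr3 had 1 of each. Of 32851 promoters of this length, 32.7% held GGGCGG and 12.4% held TATAAA. The motifs GCCNNNGGC and CANNTG, held by 13.7% and 66.2% of promoters, had 0 matches in all 4 genes. GC content was 64.4% for Cxcl12, 59.6% for Cxcl14, 61.2% for Cxcr4 and 54% for Ackr3. A match is a run of letters and not a bound site.

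Values are log2 of the deposited ratio, in which 1 is a baseline shared by the whole series, so a log2 ratio of 0 is the baseline and sets no gene's level against another's. In dissected tissue, fewer cells that express a gene and less RNA per cell cannot be told apart. Marker genes went against some labels. The 13 surface ectoderm genes averaged 0.72 to 2.61 in replicates 1 to 4 labelled E10.5 maxillary arch and -0.36 in replicate 5. The mesenchyme genes averaged 0.53 to 1.05 over those 5 libraries. In the 4 libraries labelled E10.5 mandibular arch epidermal ectoderm, the surface ectoderm genes averaged only -0.33 to 0.09, the 12 mesenchyme genes 1.02 to 1.61 and the 7 mandibular mesenchyme genes 1.31 to 2.32. The 4 libraries labelled E10.5 mandibular arch had -0.11 to 0.44 for those mandibular genes. E8.5 floor plate replicate 4 and E9.5 otic vesicle replicates 3 and 5 also stood apart by their markers. Differences that rest on these libraries are given with and without them where other libraries of the group remain. The SD of log2 ratios across genes ran from 0.39 to 1.33 between arrays, and 11 arrays had one over 0.85.

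**Figure D1:**
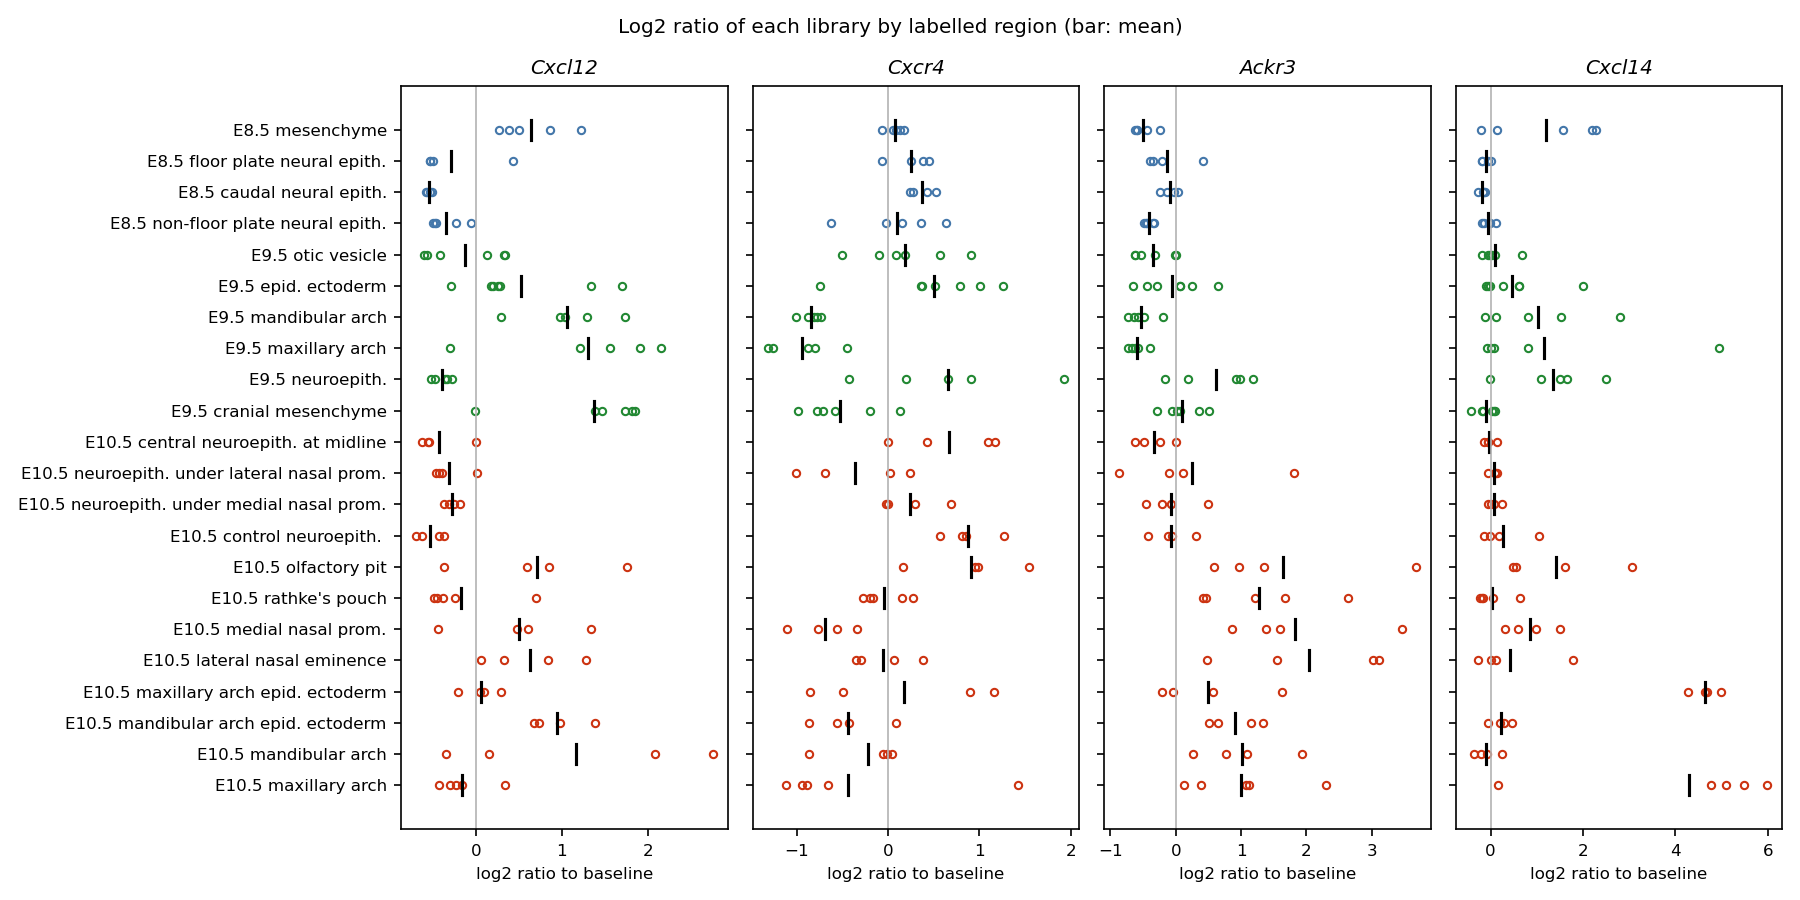
Log2 ratio of Cxcl12, Cxcr4, Ackr3 and Cxcl14 (horizontal axes, 0 is the series baseline) in each library of the 22 labelled groups (rows, E8.5 in blue, E9.5 in green and E10.5 in red), with a bar at the group mean. The mean of Cxcl12 is highest in E9.5 cranial mesenchyme, that of Ackr3 in the E10.5 lateral nasal eminence, and Cxcl14 stands between 4.28 and 5.98 in 8 libraries labelled E10.5 maxillary arch or its ectoderm.

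Cxcl14 had the widest range of the 4 genes. Its group means spanned 4.82 on the log2 scale, and 99.4% of all genes spanned less. The group means of Ackr3 spanned 2.64, those of Cxcl12 1.92 and those of Cxcr4 1.85, with 87.2%, 76.4% and 75.1% of genes spanning less. The median gene spanned 0.80. Cxcl12 was highest in E9.5 cranial mesenchyme and lowest in E8.5 caudal neural epithelium. Cxcr4 was highest in E10.5 olfactory pit and lowest in E9.5 maxillary arch, and Ackr3 was highest in the E10.5 lateral nasal eminence and lowest in E9.5 maxillary arch. Cxcl14 was highest in E10.5 maxillary arch ectoderm and lowest in E8.5 caudal neural epithelium. When the 22 groups were put in order, neighbours lay closer than the spread of their libraries in 21 of 21 steps for Cxcl12, Cxcr4 and Ackr3. For Cxcl14 the step from the libraries labelled E10.5 maxillary arch (4.30) to the E10.5 olfactory pit (1.43) was wider than that spread.

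Regional differences within a stage were tested over all 19938 genes at once with limma's moderated F test and Benjamini-Hochberg adjustment. At E10.5 all 4 genes passed, with adjusted p of 2.30e-12 for Cxcl14, 1.75e-05 for Ackr3, 0.000710 for Cxcr4 and 0.000847 for Cxcl12, on a background of 34.1% of all genes. At E9.5 Cxcr4 (2.73e-05) and Cxcl12 (3.94e-05) passed on a background of 17.7%, while Ackr3 (0.113) and Cxcl14 (0.153) missed the threshold. At E8.5 none of the 4 passed by limma, on a background of 4.25%. Unadjusted p at that stage was 0.00912 for Cxcl12, 0.0709 for Cxcl14, 0.726 for Ackr3 and 0.828 for Cxcr4. The share of a gene's variance that lay between regions was 80.7% for Cxcl14 at E10.5, and 99.8% of genes had a lower share. The tests within a stage and this share took the labels as given. They were not run without the libraries whose markers went against their labels. Over 23 planned comparisons between groups, Cxcl12 was called higher in 1 and lower in 3, and Cxcr4 higher in 3 and lower in 0. Ackr3 was called higher in 1 and lower in 1, and Cxcl14 higher in 2 and lower in 3. The share of all genes called in a comparison ran from 0.01% to 37%. The calls in E10.5 mandibular over maxillary arch and in E10.5 over E9.5 maxillary arch rest on libraries whose markers went against their labels.

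In 13 of the 23 comparisons none of the 4 genes was called by limma, and 8 of those 52 tests had an unadjusted p under 0.05. Within the neural tube there was no such p for E8.5 floor plate over non-floor plate (0.181% of all genes called), with or without floor plate replicate 4, E8.5 caudal over non-floor plate (1.42%), E10.5 midline over control neuroepithelium (0.471%) or E10.5 control over E9.5 neuroepithelium (0.426%). Cxcr4 alone had one (0.00439) in E10.5 neuroepithelium under the prominences over control (0.296%). Ackr3 (0.0133) and Cxcl14 (0.0186) had one in E9.5 neuroepithelium over E8.5 non-floor plate (1.06%). Among mesenchymal regions there was none for E9.5 mandibular over maxillary arch (0.0702%) or E10.5 medial over lateral nasal prominence (0.115%). The E9.5 first arch over cranial mesenchyme (0.933%) gave 0.0496 for Ackr3 and 0.0146 for Cxcl14, and E9.5 cranial over E8.5 mesenchyme (1.53%) gave 0.0389 for Cxcl12 and 0.0225 for Cxcl14. In ectoderm, Cxcl12 had 0.0429 in E9.5 otic vesicle over epidermal ectoderm (0.391%), with a difference of -0.66 ± 0.32. Without otic vesicle replicates 3 and 5 the unadjusted p was 0.198 and the difference -0.47 ± 0.37. There was none for the libraries labelled E10.5 mandibular ectoderm over mandibular arch (0.135%) or maxillary ectoderm over maxillary arch (0.01%). Set against maxillary arch replicate 5 alone, without the 4 libraries with ectoderm markers, maxillary ectoderm had an estimated difference of 4.49 for Cxcl14 and 1.06 for Cxcr4. For Cxcr4 the maxillary ectoderm libraries ran from -0.86 to 1.15, beside -0.88 in replicate 5. With 1 library on one side, its group's spread could not be measured.

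**Figure D2:**
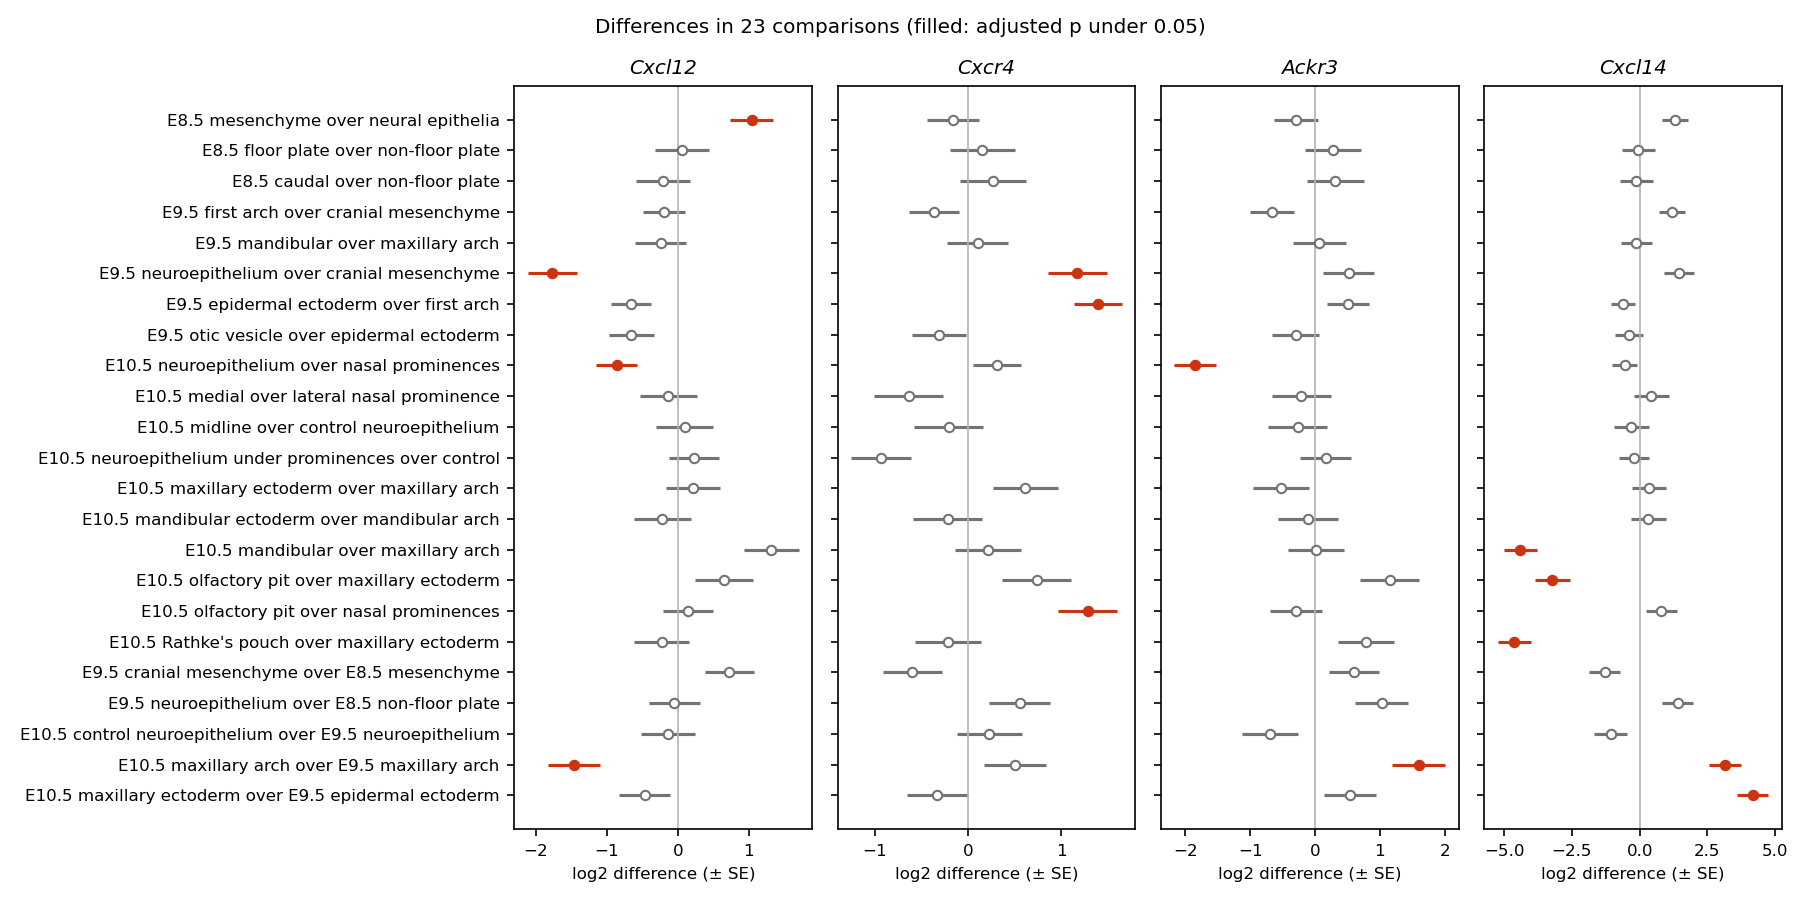
Log2 difference, the group named first minus the group named after "over" (horizontal axes, point with SE), for each of the 4 genes in 23 comparisons (rows), fitted together with limma. Filled red points have an adjusted p under 0.05 over all 19938 genes, and the widest differences are those of Cxcl14 in Rathke's pouch over maxillary ectoderm (-4.62) and in the libraries labelled mandibular over maxillary arch (-4.40).

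At E8.5 and E9.5 Cxcl12, the ligand of both receptors, was higher in mesenchyme than in neural regions. At E8.5 its log2 ratio was 0.27, 0.38, 0.50, 1.22 and 0.87 in the 5 mesenchyme libraries. It was -0.54, -0.50, -0.53 and 0.43 in floor plate, -0.57, -0.51, -0.58 and -0.53 in caudal, and -0.47, -0.23, -0.05, -0.49 and -0.48 in non-floor plate neural epithelium. All 5 mesenchyme libraries lay above 0, and of the neural libraries only floor plate replicate 4, one of those with unusual markers, did so. Mesenchyme was higher than the neural epithelia by 1.04 ± 0.30 (log2 difference and SE), a 2.06-fold difference with an adjusted p of 0.0400 by limma, on a background of 2.4% of genes called. The call was close to the threshold. It was lost when any 1 of 11 of the 18 libraries was left out, namely caudal replicates 1 and 3, floor plate replicates 1, 2 and 3, mesenchyme replicates 2, 3, 4 and 5, and non-floor plate replicates 4 and 5, with adjusted p up to 0.21 and differences of 0.90 to 1.11. Without floor plate replicate 4 the difference was 1.12 ± 0.31 with an adjusted p of 0.028, within a range of 0.0011 to 0.042 over 9 alternatives. Endothelial markers moved with it: 8 of 10 were higher in the mesenchyme, with a list mean of 1.20 to 1.93 in mesenchyme libraries and -0.40 to 0.01 in neural ones, and their part in the difference was not tested.

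At E9.5 neuroepithelium was set against cranial mesenchyme. Cxcl12 was -0.27, -0.52, -0.33, -0.47 and -0.36 in the 5 neuroepithelium libraries. In the 6 cranial mesenchyme libraries it ranged from -0.01 through a median of 1.60 to 1.86. The libraries of the groups did not overlap, although cranial mesenchyme replicate 5, at -0.01, stood far below the rest of its group. Neuroepithelium was lower by -1.77 ± 0.35, 3.40-fold, with an adjusted p of 0.000636 by limma, on a background of 1.15% of genes called and 1.53% without overlap. The difference stayed between -2.04 and -1.67 with any 1 of the 11 libraries left out. Erythroid markers were lower in 3 of 7 and endothelial markers in 2 of 10 in the same comparison. The endothelial list averaged -0.32 to 0.05 in neuroepithelium and 0.57 to 1.79 in cranial mesenchyme, and the erythroid list -0.96 to 0.32 in neuroepithelium and 0.62 to 1.64 in cranial mesenchyme. Their part in it was not tested.

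In the 6 E9.5 otic vesicle libraries Cxcl12 ran from -0.60 through a median of -0.14 to 0.34. In the 7 E9.5 epidermal ectoderm libraries it ran from -0.29 through a median of 0.26 to 1.70. In the E9.5 first arch it was above the baseline in all but 1 library. It was 0.98, 1.29, 0.29, 1.73 and 1.04 in E9.5 mandibular arch and 1.56, 2.15, 1.21, -0.30 and 1.91 in E9.5 maxillary arch. Mandibular minus maxillary arch was -0.24 ± 0.36, and the arches minus cranial mesenchyme -0.19 ± 0.30, neither with an adjusted p under 0.05 by limma. Ectoderm replicates 1 (1.34) and 4 (1.70) lay among the arch values. Ectoderm minus first arch was -0.66 ± 0.28 with an adjusted p of 0.0557, which missed the threshold, on a background of 37% of genes called. It passed when ectoderm replicate 1 (-0.80), ectoderm replicate 4 (-0.86), mandibular arch replicate 4 (-0.76) or maxillary arch replicate 4 (-0.86) was left out. The background fell to 4161 called genes without ectoderm replicate 7, the array with the SD of 1.33, against 7373 with it.

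At E10.5 Cxcl12 was low in every neuroepithelial group. It was -0.42, -0.46, 0.02 and -0.40 under the lateral and -0.37, -0.31, -0.18 and -0.26 under the medial nasal prominence. In the prominences themselves it was 0.48, -0.44, 1.34 and 0.61 in the medial nasal prominence and 0.33, 0.85, 1.29 and 0.06 in the lateral nasal eminence. One prominence library, medial replicate 2, fell among the neuroepithelial values, and the other 7 lay above all of them. The array of medial replicate 2 had an SD across genes of 1.16. Neuroepithelium was lower by -0.86 ± 0.29, 1.82-fold, with an adjusted p of 0.0238 by limma, on a background of 20.9% of genes called. The call was lost without medial nasal prominence replicate 3 (-0.72, adjusted p 0.065). Endothelial markers were lower in 2 of 10, a share near the 20.9% of all genes, and macrophage markers in 3 of 9. Endothelial list means were -0.04 to 0.79 under the lateral and -0.11 to 0.64 under the medial prominence. They overlapped those of the prominences, 0.22 to 1.02 in the lateral and -0.12 to 0.50 in the medial one. The part of endothelial cells and macrophages in the difference was not tested. Midline neuroepithelium had -0.63, -0.54, -0.56 and 0, and control neuroepithelium -0.62, -0.43, -0.37 and -0.69, so that midline minus control was 0.10 ± 0.40.

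Outside the neural tube at E10.5, Cxcl12 varied between libraries of the same label. The olfactory pit had 0.59, 1.77, 0.86 and -0.37, Rathke's pouch -0.48, -0.45, 0.70, -0.38 and -0.25, and the maxillary arch ectoderm -0.21, 0.10, 0.05 and 0.30. The libraries labelled mandibular arch ectoderm, which carried mesenchyme markers, had 0.68, 0.74, 0.98 and 1.39. The libraries labelled mandibular arch had -0.34, 2.76, 0.16 and 2.08, and those labelled maxillary arch had -0.42, -0.15, -0.31, 0.34 and -0.23. Mandibular minus maxillary arch was 1.32 ± 0.38 with an adjusted p of 0.0770 by limma, past the threshold without mandibular replicate 1 (1.82) or 3 (1.65). Against maxillary replicate 5 alone it was 1.40 ± 0.65 with an adjusted p of 0.43, in a range of 1.4e-07 to 0.85 over 9 alternatives. The widest spreads of Cxcl12 at E10.5 were in the mandibular arch (SD 1.49, n = 4) and olfactory pit (SD 0.88, n = 4). Array SD across genes was 0.93 and 0.86 in mandibular arch replicates 1 and 3, and 0.47 and 0.39 in replicates 2 and 4. Without widely spread arrays, mandibular minus maxillary arch was 2.70 with an adjusted p of 7.1e-05 by limma. In the olfactory pit, replicate 4 (-0.37) had an array SD of 0.66, below replicates 1 (0.79) and 3 (0.76). The part of array spread in these values was not tested.

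Across stages, E9.5 cranial mesenchyme minus E8.5 mesenchyme was 0.73 ± 0.35 for Cxcl12, with an adjusted p of 0.388 by limma. The libraries labelled E10.5 maxillary arch were lower than E9.5 maxillary arch by -1.46 ± 0.36, 2.76-fold, with an adjusted p of 0.00790 on a background of 8.56% of genes called. That comparison rests on the 4 E10.5 libraries with surface ectoderm markers. With replicate 5 as the remaining E10.5 library, assumed to vary like the other groups, the difference was -1.54 ± 0.64 and the adjusted p 0.13, within a range of 0.00032 to 0.19 over 9 alternatives. Without E9.5 maxillary arch replicate 2 it was -1.25 with an adjusted p of 0.062. Endothelial markers were lower in 8 of 10 in the same comparison, with list means of -0.34 to 0.44 at E10.5 and 0.35 to 1.86 at E9.5, and their part in it was not tested.

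Cxcl14, the epithelial chemokine, was highest in maxillary ectoderm at E10.5. In the olfactory pit, an ectodermal placode that gives rise to the nasal epithelium, its log2 ratio was 1.61, 0.56, 0.48 and 3.06. In Rathke's pouch, the oral ectoderm that forms the anterior pituitary, it was 0.06, 0.64, -0.23, -0.16 and -0.19. In the 4 libraries of E10.5 maxillary arch epidermal ectoderm it was 4.65, 4.98, 4.28 and 4.67. All 4 maxillary ectoderm libraries lay above every library of the olfactory pit and of Rathke's pouch. The olfactory pit was lower than maxillary ectoderm by -3.22 ± 0.65, 9.31-fold, with an adjusted p of 0.00365 by limma, on a background of 0.687% called and 5.49% without overlap. Rathke's pouch was lower by -4.62 ± 0.62, 24.6-fold, with an adjusted p of 3.74e-07, on a background of 1.63% called and 3.55% without overlap. Both tests share the maxillary ectoderm libraries. Against maxillary ectoderm, 0 of 13 surface ectoderm markers were called in the olfactory pit and 1 of 13, lower, in Rathke's pouch. The list averaged 1.03 to 1.82 in the olfactory pit, 0.79 to 1.26 in Rathke's pouch and 1.08 to 1.60 in maxillary ectoderm.

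Cxcl14 was lower in E9.5 ectoderm. The 7 values ran from -0.11 through a median of 0.27 to 1.99, where replicate 5 alone exceeded 1. E10.5 maxillary ectoderm was higher than E9.5 epidermal ectoderm by 4.17 ± 0.58, 18.0-fold, with an adjusted p of 2.37e-06 by limma, on a background of 0.361% called and 1.23% without overlap. The libraries of the stages did not overlap, and the difference stayed between 4.06 and 4.42 with any 1 of the 11 libraries left out. Of the 13 surface ectoderm genes, 0 were called higher and 0 lower in this comparison, which does not show that they were unchanged. Krt14, one of them, had a median of 0.59 at E9.5 (-0.05 to 4.19) and 3.81 in maxillary ectoderm (0.82 to 5.20). The medians of Krt8, Krt18 and Epcam were 3.04, 1.62 and 3.74 at E9.5 and 2.50, 1.57 and 3.28 in maxillary ectoderm. The E9.5 label names epidermal ectoderm without a part of the face, so stage and site cannot be told apart.

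The libraries labelled E10.5 maxillary arch fell into 2 kinds by Cxcl14. Replicates 1 to 4 had 5.98, 5.10, 5.49 and 4.76, as high as the maxillary ectoderm or higher, and replicate 5 had 0.15. The high replicates are those whose surface ectoderm genes averaged 0.72 to 2.61, and replicate 5 had -0.36. Maxillary ectoderm minus the libraries labelled maxillary arch was 0.35 ± 0.62, with an adjusted p of 1.00 by limma on a background of 0.01% called. Set against replicate 5 alone, which was assumed to vary like the other groups, it was 4.49 ± 0.88 with an adjusted p of 0.0045. Over 9 alternatives the adjusted p ran from 0.0045 to 1.

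**Figure D3:**
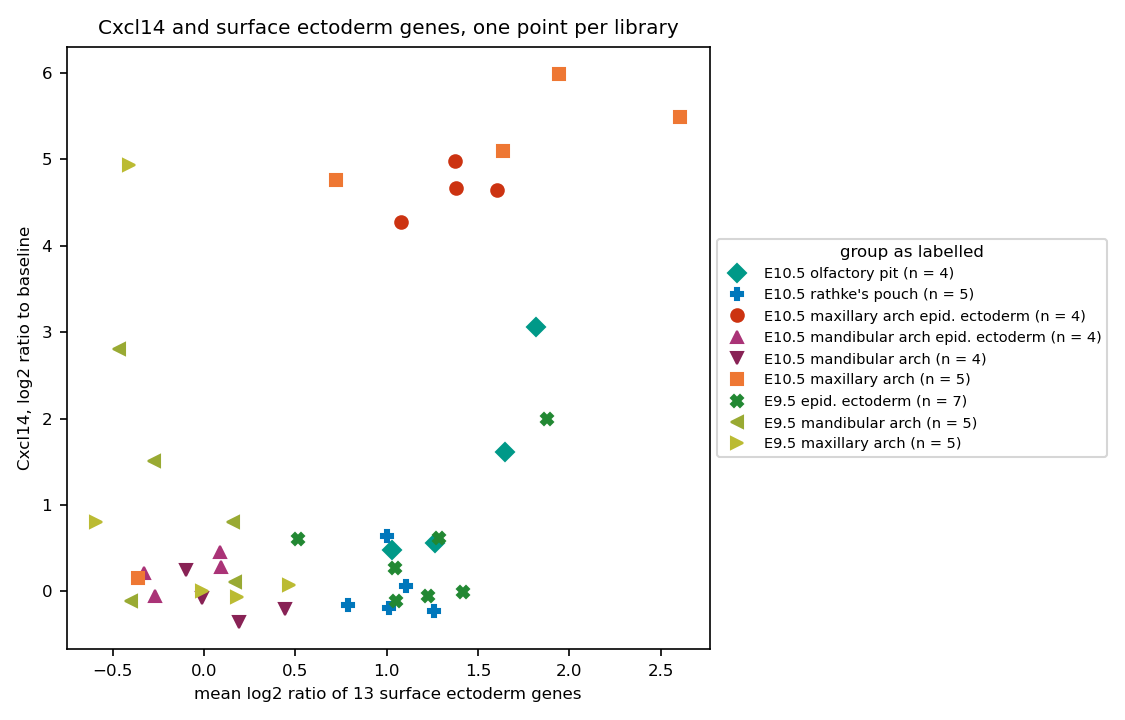
Cxcl14 log2 ratio (vertical axis) against the mean log2 ratio of 13 surface ectoderm genes (horizontal axis), one point per library, for 9 labelled groups. The libraries labelled E10.5 maxillary arch sit with the maxillary ectoderm except replicate 5, and Rathke's pouch and most E9.5 ectoderm libraries have surface ectoderm genes near 1 with Cxcl14 near 0.

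Cxcl14 was near the baseline in the E10.5 libraries with mandibular labels, of which those labelled mandibular arch had low mandibular mesenchyme markers. The libraries labelled mandibular arch ectoderm had 0.46, 0.21, 0.28 and -0.05, and those labelled mandibular arch had -0.08, -0.21, 0.25 and -0.35. The libraries labelled mandibular arch were lower than those labelled maxillary arch by -4.40 ± 0.62, 21.1-fold, with an adjusted p of 2.56e-06 by limma on a background of 0.772%. Without the 4 maxillary libraries that carried ectoderm markers, the difference was -0.25 ± 0.88 with an adjusted p of 0.96, the highest of 9 alternatives whose lowest was 4.8e-12. In the same comparison 4 of 13 surface ectoderm genes were lower, with list means of -0.10 to 0.44 in libraries labelled mandibular arch and -0.36 to 2.61 in those labelled maxillary arch. No library labelled mandibular ectoderm carried ectoderm markers, so Cxcl14 in mandibular ectoderm could not be read from that label. Among mandibular mesenchyme genes, Hand1, Hand2 and Barx1 had medians of 0.65, 0.86 and 1.80 in the libraries labelled E10.5 maxillary arch. In those labelled mandibular arch they had -0.15, -0.22 and -0.26. Dlx5 had 0 and 0.75 in these groups, and Dlx6 0.10 and 0.05. Whether the libraries labelled maxillary arch held mandibular tissue was not tested.

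At E9.5 single arch libraries had high Cxcl14. The mandibular arch had 0.80, 2.80, 1.51, -0.12 and 0.11, and the maxillary arch had 0.80, 0.07, 0, -0.07 and 4.93. Maxillary arch replicate 5, at 4.93, reached the level of E10.5 maxillary ectoderm while its surface ectoderm list mean was -0.41. The libraries labelled E10.5 maxillary arch were higher than E9.5 maxillary arch by 3.15 ± 0.58, 8.88-fold, with an adjusted p of 0.000382 by limma. Without the 4 libraries with ectoderm markers the difference turned to -0.997 ± 0.87 with an adjusted p of 0.47, and the lowest of 9 alternatives was 8.5e-08. The stage difference of ectoderm over maxillary arch was 1.02 ± 0.82 (adjusted p 0.628) with all libraries and 5.17 ± 1.00 (adjusted p 0.0046) without those 4, on a background of 0.211%, and over 10 alternatives the adjusted p ran from 0.0046 to 0.99. Surface ectoderm genes were higher in 6 of 13 in the E10.5 against E9.5 comparison of the maxillary arch, where 8.56% of all genes were called.

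Cxcl14 also appeared outside ectoderm. In E8.5 mesenchyme it was 2.29, 2.20, 0.14, -0.21 and 1.57, while the 13 neural libraries of that stage lay between -0.28 and 0.11. Mesenchyme minus neural epithelia was 1.31 ± 0.49 with an adjusted p of 0.208 by limma, and 1.30 ± 0.42 without floor plate replicate 4 (0.097, in a range of 0.0051 to 0.29 over 9 alternatives). In E9.5 neuroepithelium it was -0.02, 1.497, 1.65, 1.10 and 2.49, and in the 6 cranial mesenchyme libraries -0.43 to 0.08 around a median of -0.07. That difference was 1.44 ± 0.56 with an adjusted p of 0.346. The medial nasal prominence had 1.49, 0.99, 0.59 and 0.31, and the lateral nasal eminence -0.27, 0.12, 0.01 and 1.79, a difference of 0.43 ± 0.65. Otic vesicle ran from -0.18 through 0.01 to 0.67. In E10.5 neuroepithelium Cxcl14 ran from -0.15 to 0.14 at the midline, from -0.05 to 0.15 under the lateral prominence, from -0.06 to 0.25 under the medial one and from -0.14 to 1.06 in the control region.

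Cxcr4, the signalling receptor for CXCL12, ran the other way from Cxcl12 at E9.5. It was -0.43, 0.20, 0.65, 0.91 and 1.93 in E9.5 neuroepithelium and ran from -0.99 through -0.65 to 0.13 in cranial mesenchyme. Neuroepithelium replicate 1 and mesenchyme replicates 3 and 5 overlapped. Neuroepithelium was higher by 1.17 ± 0.32, 2.25-fold, with an adjusted p of 0.0364 by limma, on the background of 1.15%. The call was lost without any 1 of 7 libraries, namely neuroepithelium replicates 3, 4 and 5 and cranial mesenchyme replicates 1, 2, 4 and 6, with adjusted p of 0.061 to 0.38. Without neuroepithelium replicate 5 the difference was 0.85.

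The first arch had low Cxcr4. The 6 E9.5 otic vesicle libraries ran from -0.51 through a median of 0.14 to 0.91, and the 7 ectoderm libraries from -0.74 through 0.51 to 1.26. The mandibular arch had -1.004, -0.81, -0.87, -0.73 and -0.77, and the maxillary arch -1.26, -1.31, -0.79, -0.45 and -0.87. Only ectoderm replicate 1, at -0.74, fell among the arch values. Ectoderm was higher than first arch by 1.39 ± 0.26, 2.63-fold, with an adjusted p of 5.73e-05 by limma, where 37% of genes were called. The difference stayed between 1.27 and 1.60 with any 1 of the 17 libraries left out. In the same comparison 9 of 10 endothelial, 6 of 7 erythroid and 8 of 12 mesenchyme markers were lower and 9 of 13 surface ectoderm markers higher. The mesenchyme list averaged -0.76 to 0.65 in ectoderm, against 1.36 to 1.88 in mandibular and 1.19 to 1.85 in maxillary arch, and the endothelial list -0.28 to 0.62 in ectoderm, against 1.07 to 1.67 and 0.35 to 1.86 in those arches. Their part in the difference was not tested. Otic vesicle minus ectoderm was -0.32 ± 0.29, and -0.14 ± 0.30 without otic replicates 3 and 5.

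At E10.5 the olfactory pit had the high Cxcr4, 1.55, 0.99, 0.95 and 0.17. The medial nasal prominence had -0.55, -0.34, -0.77 and -1.10, and the lateral nasal eminence 0.38, -0.35, 0.06 and -0.29. Olfactory pit replicate 4, at 0.17, was within the lateral values and the other 3 were above all 8 prominence libraries. The pit was higher than the prominences by 1.28 ± 0.32, 2.43-fold, with an adjusted p of 0.0211 by limma, on a background of 0.913%. The call was lost without olfactory pit replicate 1 (1.07, adjusted p 0.20), 2 (1.26, 0.067) or 3 (1.27, 0.063). Mesenchyme markers were lower in 4 of 12 and surface ectoderm markers higher in 5 of 13 in the olfactory pit. Its mesenchyme list averaged -0.65 to -0.27, against 0.55 to 1.80 in medial and 0.68 to 1.62 in lateral prominence libraries, and the part of tissue make-up in the difference was not tested.

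In the E10.5 neuroepithelium Cxcr4 was 0.03, -0.69, 0.24 and -1.01 under the lateral and 0, 0.29, 0.68 and -0.02 under the medial nasal prominence. Midline neuroepithelium had -0.0023, 0.42, 1.17 and 1.09, and control neuroepithelium 0.57, 1.27, 0.81 and 0.85. All 4 control libraries were above 0.5, and 1 of the 8 libraries under the prominences was. The neuroepithelium under the prominences minus control was -0.94 ± 0.32, with an unadjusted p of 0.00439 and an adjusted p of 0.463 by limma, so the difference failed the correction. Neuroepithelium minus nasal prominences was 0.31 ± 0.26 for Cxcr4, against 1.17 at E9.5, and the test of the change between stages gave -0.86 ± 0.41 with an adjusted p of 0.402.

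Elsewhere Cxcr4 spread widely within labels. E10.5 maxillary ectoderm had -0.49, 0.90, 1.15 and -0.86, and the libraries labelled maxillary arch had -1.12, -0.94, -0.66, 1.42 and -0.88. Those labelled mandibular ectoderm had 0.08, -0.86, -0.43 and -0.56, and those labelled mandibular arch -0.06, -0.01, -0.87 and 0.04. Rathke's pouch had -0.20, -0.27, -0.16, 0.15 and 0.27. At E8.5 Cxcr4 was near the baseline, -0.06 to 0.17 in mesenchyme, -0.06 to 0.45 in floor plate, 0.24 to 0.52 in caudal and -0.62 to 0.64 in non-floor plate neural epithelium.

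**Figure D4:**
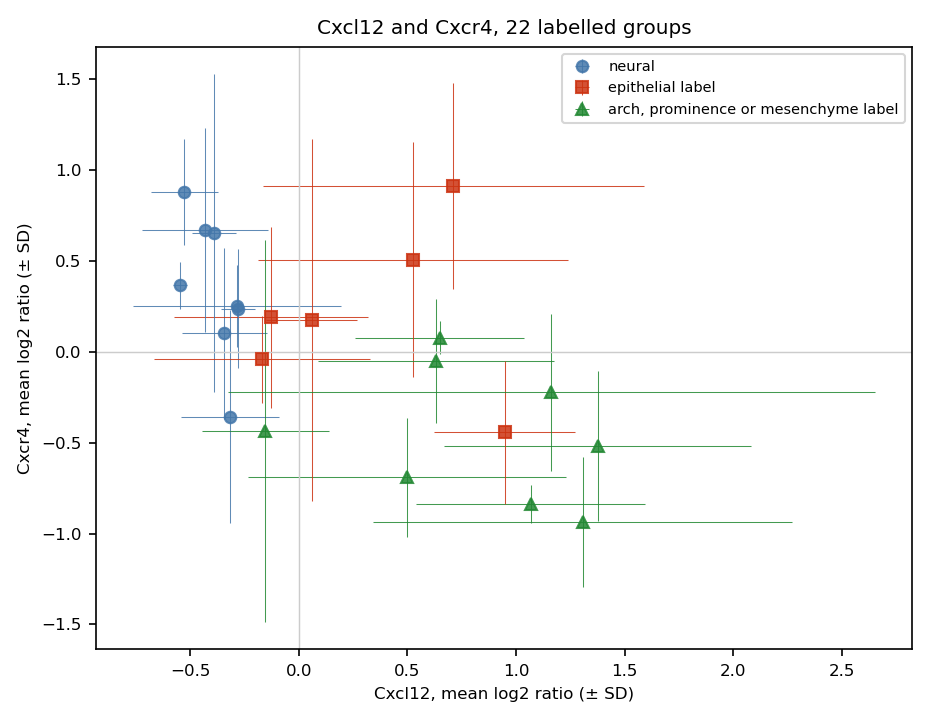
Mean log2 ratio of Cxcr4 (vertical axis) against that of Cxcl12 (horizontal axis) in the 22 labelled groups, with SD over libraries as bars and symbols by the kind of label. The neural groups lie at Cxcl12 means of -0.55 to -0.28, and the E9.5 arches and cranial mesenchyme combine Cxcl12 means over 1 with Cxcr4 means of -0.94 to -0.52.

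Over the 22 group means, Pearson's r of Cxcl12 with Cxcr4 was -0.58, the widest of the 6 pairs among the members. The other pairs lay between -0.09 and 0.19. The points share arrays and a baseline, and the value is a description. The 8 neural groups had Cxcl12 means from -0.55 to -0.28, and the E9.5 maxillary arch, mandibular arch and cranial mesenchyme had 1.31, 1.07 and 1.38 for Cxcl12 beside -0.94, -0.84 and -0.52 for Cxcr4. Some groups had both means on the same side of the baseline. Among them, the olfactory pit had 0.71 for Cxcl12 and 0.91 for Cxcr4, and E9.5 epidermal ectoderm had 0.53 and 0.51. Both means were below it in E10.5 neuroepithelium under the lateral nasal prominence (-0.32 and -0.36) and in the libraries labelled E10.5 maxillary arch (-0.16 and -0.44).

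Ackr3, the scavenging receptor, was near or below the baseline at E8.5. It was -0.24, -0.60, -0.63, -0.59 and -0.45 in mesenchyme, -0.34, -0.21, -0.40 and 0.42 in floor plate, -0.03, 0.03, -0.24 and -0.14 in caudal, and -0.33, -0.45, -0.49, -0.34 and -0.45 in non-floor plate neural epithelium. The caudal values did not overlap the non-floor plate values, and the difference was 0.32 ± 0.43 with an adjusted p of 1.00 by limma, where 5.71% of genes did not overlap. At E9.5 the arch libraries were all below 0, from -0.73 to -0.20 in mandibular and from -0.73 to -0.39 in maxillary arch. Neuroepithelium had 0.18, 0.98, 1.18, 0.92 and -0.16, and the 6 cranial mesenchyme libraries ran from -0.29 through 0.04 to 0.51. Neuroepithelium minus cranial mesenchyme was 0.52 ± 0.39 with an adjusted p of 0.948. All 5 E9.5 neuroepithelium libraries lay above all 5 E8.5 non-floor plate libraries, by 1.03 ± 0.41 on average, with an adjusted p of 0.324, where 3.89% of genes did not overlap.

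By E10.5 Ackr3 was high in the tissues of the face. The neuroepithelium under the nasal prominences had -0.08, 0.49, -0.46 and -0.21 on the medial and 1.81, -0.87, 0.12 and -0.10 on the lateral side. The medial nasal prominence itself had 1.60, 0.86, 1.38 and 3.47, and the lateral nasal eminence 0.48, 3.11, 3.01 and 1.56. Lateral neuroepithelium replicate 1, at 1.81, lay among the prominence values, as did medial neuroepithelium replicate 2, at 0.49, just above the lowest of them. Neuroepithelium was lower by -1.85 ± 0.32, 3.60-fold, with an adjusted p of 2.23e-05 by limma, on the background of 20.9%. The difference stayed between -2.11 and -1.57 with any 1 of the 16 libraries left out and was -2.09 without the widely spread arrays. Macrophage markers were lower in 3 of 9 and endothelial markers in 2 of 10 in the same comparison. The endothelial share was near the 20.9% of all genes called. The macrophage list averaged -0.11 to 0.45 under the lateral and -0.09 to 0.68 under the medial prominence, against 0.21 to 0.51 in the medial and 0.44 to 1.12 in the lateral prominence. The endothelial list averaged -0.04 to 0.79 and -0.11 to 0.64 in those neuroepithelia, against -0.12 to 0.50 and 0.22 to 1.02 in those prominences. Their part in the difference was not tested.

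The Ackr3 difference between neural and mesenchymal tissue was not the same at E10.5 and E9.5. Neuroepithelium minus nasal prominences was -1.85 at E10.5, and neuroepithelium minus cranial mesenchyme was 0.52 at E9.5. The test of the change itself gave -2.37 ± 0.51, with an adjusted p of 0.0114 by limma on a background of 0.356%. It stayed between -2.63 and -2.09 with any 1 of the 27 libraries left out. When only the compared groups were fitted, the estimate was the same and the adjusted p was 0.14, the highest of 8 alternatives whose lowest was 0.00052. The mesenchymal regions at E9.5 and E10.5 are not the same place, so stage and site cannot be told apart.

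In the remaining E10.5 regions outside the neural tube, the mean of Ackr3 was above the baseline, with 2 maxillary ectoderm libraries below it. The olfactory pit had 0.58, 3.68, 1.35 and 0.96, and Rathke's pouch 0.42, 2.64, 0.47, 1.21 and 1.67. Maxillary ectoderm had -0.04, 1.63, 0.56 and -0.20. The libraries labelled mandibular ectoderm had 1.33, 0.64, 1.16 and 0.51, those labelled mandibular arch 0.26, 0.76, 1.10 and 1.94, and those labelled maxillary arch 0.39, 1.08, 0.13, 2.30 and 1.13. Only some pairs of these regions were compared, and none of the compared pairs passed the threshold by limma. By that test olfactory pit minus maxillary ectoderm was 1.16 ± 0.46 (unadjusted p 0.0131, adjusted p 0.289) and Rathke's pouch minus maxillary ectoderm 0.79 ± 0.43 (adjusted p 0.412). Midline neuroepithelium had -0.49, -0.24, -0.62 and 0, and control neuroepithelium -0.06, -0.12, 0.31 and -0.43.

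The libraries labelled E10.5 maxillary arch were higher in Ackr3 than E9.5 maxillary arch by 1.60 ± 0.41, 3.03-fold, with an adjusted p of 0.00957 by limma, on the background of 8.56% called and 2.89% without overlap. All 5 E10.5 libraries lay above all 5 E9.5 libraries. With replicate 5 as the only E10.5 library the difference was 1.72 ± 0.70 and the adjusted p 0.12, within a range of 0.00045 to 0.15 over 9 alternatives. Without E10.5 maxillary arch replicate 4 it was 1.28 with an adjusted p of 0.070. Ackr3 in otic vesicle ran from -0.62 through -0.42 to 0.00052, and in E9.5 ectoderm from -0.66 through 0.06 to 0.65. E10.5 maxillary ectoderm minus E9.5 ectoderm was 0.54 ± 0.40 with an adjusted p of 0.714.

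The genes whose 22 group means were most like each member's were found by Pearson's r over the 22 groups, passing over predicted genes, clones, olfactory and vomeronasal receptors and small RNAs. For Cxcl12 they were Snai1 (0.90), a zinc finger repressor, Plvap (0.89), a protein of endothelial diaphragms, the collagen gene Col3a1 (0.89), the procollagen enhancer gene Pcolce (0.88) and the collagen gene Col23a1 (0.88). For Cxcl14 they were Cbr2 (0.91), Trim29 (0.90), Perp (0.89), Asprv1 (0.86) and Bnc1 (0.85). For Cxcr4 they were Btbd17 (0.77), Tpbg (0.76), Hs6st1 (0.75), Rac3 (0.75) and Aifm3 (0.75). For Ackr3 they were Krtap10-10 (0.88), the casein gene Csn2 (0.88), Smim4 (0.87), Tnfaip8l2 (0.87) and Prr30 (0.87). After quantile normalization the r of these genes lay between 0.70 and 0.91.

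The rest of the chemokine family gave few calls in most comparisons. Of 34 other chemokine ligand genes, 0 were called in E8.5 mesenchyme against neural epithelia, 1 higher and 1 lower in E9.5 neuroepithelium against cranial mesenchyme, and 7 lower in E10.5 neuroepithelium against nasal prominences, where 20.9% of all genes were called and the share of the ligands was near it. In the E9.5 comparison Ccl19, a ligand of CCR7, was higher in neuroepithelium by 4.09 ± 0.70 (adjusted p 5.64e-05). Pf4, the platelet chemokine CXCL4, was lower there by -3.90 ± 0.83 (0.00215). At E10.5 Pf4 was lower in neuroepithelium by -3.50 ± 0.68 (0.000162) and Cxcl13, a B cell attractant, by -1.44 ± 0.32 (0.000955). Cxcl13 was also lower in the medial than in the lateral nasal prominence, by -2.75 ± 0.46 (0.000531). The list's median difference in these comparisons ran from -0.10 to 0.01, and that of all genes from -0.03 to 0.05.

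Other chemokine receptor genes, 20 of 21 measured, gave few calls. Ackr1, a decoy receptor of endothelium and red cells, was higher in E8.5 mesenchyme than in neural epithelia by 1.69 ± 0.22 (adjusted p 1.60e-08 by limma). It was lower in E9.5 cranial mesenchyme than in E8.5 mesenchyme by -2.14 ± 0.25 (1.63e-09). In E9.5 ectoderm against first arch 4 of the 20 were higher and 0 lower, by 0.35 or less on the log2 scale, where 37% of all genes were called. Of the 34 ligands 10 were higher there, by up to 0.43 for Cxcl1, a neutrophil attractant, and 2 were lower, Pf4 by -2.74 and Ccl6 by -0.87. In the libraries labelled E10.5 mandibular against maxillary arch, 1 of 20 was called, Cx3cr1, the fractalkine receptor of macrophages and microglia, higher by 1.02 ± 0.26 (0.0279).

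Genes of proteins that act with CXCR4 and ACKR3 were measured for 25 of 27. They include G protein subunits, receptor kinases, arrestins and other ligands. Adm, which encodes adrenomedullin, a ligand that ACKR3 scavenges, was higher in E8.5 mesenchyme than in neural epithelia by 1.98 ± 0.23 (adjusted p 3.47e-10 by limma). It was lower in E9.5 cranial mesenchyme than in E8.5 mesenchyme by -1.86 ± 0.26 (4.03e-07). In E10.5 neuroepithelium against nasal prominences 7 of the 25 were higher and 0 lower, with 20.9% of all genes called in either direction and a median difference of 0.31 beside 0.05 for all genes. Among them Gnai2, an inhibitory G protein alpha subunit, was higher by 1.94 ± 0.34 (3.04e-05). In E9.5 ectoderm against first arch 12 were lower and 1 higher, with 37% of all genes called and a median of -0.40 beside -0.05 for all genes. Ramp2, part of the adrenomedullin receptor, was lower there by -3.72 ± 0.58 (2.71e-06) and in the olfactory pit against nasal prominences by -3.41 ± 0.72 (0.00268). Endothelial markers were lower in 9 of 10 in the first of these and in 1 of 10 in the second, where 0.913% of all genes were called. The list averaged -0.28 to 0.62 in E9.5 ectoderm, against 1.07 to 1.67 in mandibular and 0.35 to 1.86 in maxillary arch. It averaged -0.28 to -0.18 in the olfactory pit, against 0.22 to 1.02 in the lateral and -0.12 to 0.50 in the medial prominence. The part of endothelial cells in the Ramp2 differences was not tested.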

How the data were processed

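The table holds 1 value per probe set and array for 103 arrays of a whole-transcript mouse platform, labelled with biotin after linear amplification of RNA from laser-captured cells. The values are ratios that the authors deposited. Per the submitters' processing notes, RMA and the build mm9 were used, with no version given in the sources used here. Tested on the file, each probe set's ratio has a median of 1 over 21 libraries drawn from 19 of the groups, so that these libraries set the baseline of the deposited ratios. Ratios were taken to log2 here, and no further scaling was applied to the deposited log2 values. Of 35557 probe sets, 28856 had values. The smallest ratio, 0.01, occurred 62 times and 0 times in the 4 genes. Probe sets with 1 gene symbol (21789) were kept, the one with the highest mean was taken for each of 999 genes with several, and 19938 genes were tested.

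Groups were taken from the labels. One E9.5 library with conflicting labels was left out, and the 4 libraries of the neuroepithelium under the medial nasal prominence were grouped by their tissue label, since their titles name the lateral one. All 22 groups were fitted together with limma 3.58.1 in R 4.3.3 (lmFit, contrasts of group means, eBayes, 80 residual degrees of freedom), with Benjamini-Hochberg adjustment over all genes of a comparison and a threshold of 0.05. Differences are the group named first minus the other. Genes in 3 pathway lists and 13 marker lists were counted by direction, and figures were drawn with matplotlib 3.10.9. The script was tested on simulated data. The number of arrays limits the precision. The 4 genes, the lists, the rule for genes of like pattern (the 5 with the highest r) and the rule for pathway genes (at most 3 called per comparison) were chosen with earlier results of these data known. The alternatives tried were the compared groups alone with or without replicate blocks, weighted arrays, quantile-normalized values, each array's 5th percentile as a covariate, a trended prior, the mean of all probe sets, arrays of wide spread left out, other homes for the libraries with conflicting labels, and libraries left out.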

Additional observations from a re-analysis of the deposited data

Results flagged for a closer look

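In 11 of 88 combinations of gene and group that were tested, 1 library stood far from the rest of its group by Dixon's criterion, where chance gives about 1 in 20. For Cxcl12, E8.5 floor plate replicate 4 had 0.43 and the others -0.54 to -0.50. E9.5 cranial mesenchyme replicate 5 had -0.012 and the others 1.39 to 1.86. E10.5 midline neuroepithelium replicate 4 had 0 and the others -0.63 to -0.54. Neuroepithelium under the lateral nasal prominence replicate 3 had 0.020 and the others -0.46 to -0.40, and Rathke's pouch replicate 3 had 0.70 and the others -0.48 to -0.25.

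For Cxcr4, the library labelled E10.5 mandibular arch replicate 3 had -0.87 and the others -0.06 to 0.04, and the library labelled E10.5 maxillary arch replicate 4 had 1.42 and the others -1.12 to -0.66. For Cxcl14, E9.5 epidermal ectoderm replicate 5 had 1.99 and the others -0.11 to 0.62. E9.5 maxillary arch replicate 5 had 4.93 and the others -0.07 to 0.80, and E9.5 otic vesicle replicate 6 had 0.67 and the others -0.18 to 0.08. The library labelled E10.5 maxillary arch replicate 5 had 0.15 and the others 4.76 to 5.98.

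For Ackr3 the difference of neuroepithelium over mesenchymal regions was not the same at E10.5 and E9.5. The test of that difference gave -2.37 on the log2 scale, with an adjusted p of 0.0114 by limma.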

How the results depend on the processing

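The variance trend and the mean of all probe sets changed 0 of 100 calls each, and regrouping the libraries with conflicting labels changed none. The cause of the changes below was not tested. Fits of the compared groups alone have fewer samples and take the spread from those groups only. All values are log2 differences. With array weights these passed the threshold: Cxcl14 in E8.5 mesenchyme over neural epithelia (1.43) and in E9.5 neuroepithelium over cranial mesenchyme (1.64), and Cxcl12 in E9.5 ectoderm over first arch (-0.74), E10.5 mandibular ectoderm over mandibular arch (-1.30) and mandibular over maxillary arch (2.44). So did E9.5 cranial over E8.5 mesenchyme for Cxcl12 (0.89) and Cxcl14 (-1.38), E9.5 neuroepithelium over E8.5 non-floor plate for Cxcr4 (0.79), Ackr3 (1.02) and Cxcl14 (1.64), and the stage difference of neuroepithelium over mesenchyme for Cxcl14 (-2.05). With quantile normalization Ackr3 passed in E9.5 ectoderm over first arch (1.32) and E9.5 neuroepithelium over E8.5 non-floor plate (1.67), as did Cxcr4 in E10.5 over E9.5 maxillary arch (1.499). Cxcr4 in olfactory pit over nasal prominences (1.32) and Cxcl12 in E10.5 over E9.5 maxillary arch (-1.15) were lost there. Cxcl12 in E10.5 mandibular over maxillary arch passed with the 5th percentile as a covariate (1.22) and without the widely spread arrays (2.70), and Cxcr4 in olfactory pit over maxillary ectoderm passed without those arrays (1.58).

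With the compared groups alone, Cxcl14 in E8.5 mesenchyme over neural epithelia (1.31) and Ackr3 in E9.5 ectoderm over first arch (0.51) passed. Lost were Cxcr4 in E9.5 neuroepithelium over cranial mesenchyme (1.17) and in olfactory pit over nasal prominences (1.28), and Cxcl14 in mandibular over maxillary arch (-4.40) and in olfactory pit over maxillary ectoderm (-3.22). In E10.5 over E9.5 maxillary arch Cxcl12 (-1.46), Ackr3 (1.60) and Cxcl14 (3.15) were lost, as was the stage difference of neuroepithelium for Ackr3 (-2.37). The SE of Cxcl14 was 1.10 in mandibular over maxillary arch, against 0.62 with all groups. For Cxcl14 in E10.5 over E9.5 maxillary arch it was 1.32 against 0.58, and for the Ackr3 stage difference 0.64 against 0.51. For Cxcl14 in olfactory pit over maxillary ectoderm the SE was smaller, 0.56 against 0.65. In 0 of 17 comparisons did every same-numbered pair of libraries correlate above 0.1 (r from -0.383 to 0.599). A single weak pair fails this rule, so it cannot show that replicate numbers carry no pairing. The replicate block on the compared groups alone lost 9 calls. They were E9.5 neuroepithelium over cranial mesenchyme for Cxcl12 (-1.68) and Cxcr4 (1.13), Cxcl14 in mandibular over maxillary arch (-5.43), olfactory pit over maxillary ectoderm (-3.22) and E10.5 maxillary over E9.5 ectoderm (4.53), Cxcr4 in olfactory pit over nasal prominences (1.28), and E10.5 over E9.5 maxillary arch for Cxcl12 (-1.46), Ackr3 (1.60) and Cxcl14 (3.15). The replicate block was not run for both E10.5 comparisons that pool the neuroepithelium under the prominences or for the stage difference of neuroepithelium.

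Without the libraries whose markers went against their labels, a setting chosen after seeing the data, Cxcl14 passed in E10.5 maxillary ectoderm over maxillary arch (4.49) and in the stage difference of ectoderm (5.17). Cxcl14 in mandibular over maxillary arch (-0.25) and Cxcl12 (-1.54) and Ackr3 (1.72) in E10.5 over E9.5 maxillary arch were lost, and Cxcl14 in the last was reversed (-0.997, against 3.15 with all libraries). With 1 library left out at a time, calls were lost or gained for Cxcl12 in E8.5 mesenchyme over neural epithelia (0.90 to 1.13), E9.5 ectoderm over first arch (-0.86 to -0.53), E10.5 neuroepithelium over nasal prominences (-1.02 to -0.72), mandibular over maxillary arch (0.79 to 1.82) and E10.5 over E9.5 maxillary arch (-1.86 to -1.25). The same held for Cxcr4 in E9.5 neuroepithelium over cranial mesenchyme (0.85 to 1.44) and olfactory pit over nasal prominences (1.07 to 1.53), and for Ackr3 in E10.5 over E9.5 maxillary arch (1.28 to 1.82).

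The number of genes called per comparison, 2 to 7373 with all libraries, moved by over 1.5 times in 22 of 25 comparisons with the compared groups alone (0 to 3907 called), 22 of 22 with the replicate block (0 to 704), 17 of 25 with array weights (64 to 7733), 12 of 25 with quantile normalization (5 to 5153), 10 of 25 without widely spread arrays (10 to 5019), 9 of 25 with the 5th percentile (3 to 1412), 6 of 7 without the libraries with contrary markers (35 to 682) and 89 of 301 fits with 1 library left out (4 to 8674).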

Other observations

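One E9.5 library has labels that disagree, naming mandibular arch in one place and epidermal ectoderm in another, and entered no comparison. Its log2 ratios were 0.97 for Cxcl12, -0.81 for Cxcr4, 0.67 for Ackr3 and 3.33 for Cxcl14. Its list means were 0.93 for surface ectoderm, 1.35 for mesenchyme and 1.33 for mandibular mesenchyme genes. With this library added to either group, 0 of the calls in the comparisons that use it changed.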
